A study of Homo sapiens with 36 samples.

Results

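The CXC and CC chemokines examined here were 10 genes taken from a list of named members and found by their symbol among 60725 Ensembl genes quantified by RNA-seq. CXCL1, CXCL2, CXCL3, CXCL5, CXCL6 and CXCL8 are the 6 CXC members, all of the ELR type that attracts neutrophils, and CCL2, CCL5, CCL20 and CCL28 are the 4 CC members. They were followed through 36 libraries in 18 groups of 2, made from 2 human breast cell lines. ER-Src is the nontransformed, immortalized breast epithelial line MCF-10A with a fusion of the v-Src oncoprotein to the hormone-binding part of the estrogen receptor, which keeps Src off until tamoxifen is added and transformation begins. Its 20 libraries were treated with the vehicle ethanol (ETH) or with tamoxifen (TAM) and carried a control siRNA (Ctrli) or a pool of siRNAs against YAP (YAPi), TAZ (TAZi), STAT3 (STAT3i) or JUNB (JUNBi). All ER-Src groups therefore carry the v-Src fusion and a transfected siRNA, and the labels give a growth medium with EGF, insulin, hydrocortisone and cholera toxin. MDA-MB-231, a triple-negative breast cancer line, gave 16 libraries in 2 sets: Ctrli, YAPi, TAZi, YAPi together with TAZi (YAPi_TAZi), and siRNAs against the TEAD factors (TEADi) in set 1, and another Ctrli, JUNBi and STAT3i in set 2. The study's methods name DMEM with fetal bovine serum as the medium of this line. The labels carry 1 treatment text for every sample, 0.4 to 1 µM tamoxifen with 2 to 4 µM AZD0530, a Src inhibitor, and the study's methods add AZD0530 to tamoxifen in the arm that transforms, so TAM here may stand for both agents. The methods give a short and a day-long treatment, started a day after transfection, without a statement of which one the RNA-seq used. No source says that the replicates were separate cultures, so the p-values measure only the spread between these libraries, which may be technical.

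Chemokines are small secreted proteins that direct the movement of leukocytes along a gradient through G protein-coupled receptors. The ELR CXC chemokines, named after a glutamate-leucine-arginine motif ahead of the CXC cysteines, act on CXCR1 and CXCR2, and their genes lie in a cluster on chromosome 4 whose neighbours arose by duplication. In epithelial cells they are classic targets of NF-kB and are also induced by interleukin 1 and tumor necrosis factor. CCL20 attracts CCR6-bearing lymphocytes and dendritic cells to epithelia, CCL2 attracts monocytes through CCR2, CCL5 attracts T cells and monocytes, and CCL28 is a mucosal chemokine that binds CCR10 and CCR3. YAP and TAZ are coactivators that reach DNA mainly through TEAD factors, JUNB is a subunit of AP-1, and STAT3 is a transcription factor activated downstream of Src and interleukin 6.

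On GRCh38, CXCL8 (chr4:73740519-73743716, plus strand), CXCL1 (chr4:73869393-73871308, plus strand), CXCL3 (chr4:74036589-74038807, minus strand) and CXCL2 (chr4:74097040-74099196, minus strand) lie within the chromosome 4 cluster, with CXCL6 and CXCL5 between CXCL8 and CXCL3. CCL20 (chr2:227805739-227817564, plus strand), CCL2 (chr17:34255274-34257208, plus strand) and CCL28 (chr5:43376645-43412391, minus strand) lie elsewhere. The stretches printed here run from 210 to 31 bases before the RefSeq start site (GRCh38.p14) of the 5 members that were well expressed in ER-Src, 5′ to 3′ on the strand of the gene. Capitals mark matches to NF-kB and AP-1 motifs. A link between these motifs and the responses of the members was not tested.
CXCL1, chr4:73869183-73869362, plus strand: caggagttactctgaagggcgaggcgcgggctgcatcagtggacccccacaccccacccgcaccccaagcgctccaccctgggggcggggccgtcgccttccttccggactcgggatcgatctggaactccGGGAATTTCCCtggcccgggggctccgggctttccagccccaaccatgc
CXCL2, chr4:74099226-74099405, minus strand: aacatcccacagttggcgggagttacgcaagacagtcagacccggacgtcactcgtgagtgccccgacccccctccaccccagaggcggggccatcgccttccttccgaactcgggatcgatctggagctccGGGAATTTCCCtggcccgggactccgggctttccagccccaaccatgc
CXCL3, chr4:74038720-74038899, minus strand: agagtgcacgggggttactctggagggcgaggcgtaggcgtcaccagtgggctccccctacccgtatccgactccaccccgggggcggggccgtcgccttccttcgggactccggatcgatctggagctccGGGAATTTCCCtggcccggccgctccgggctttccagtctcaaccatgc
CXCL8, chr4:73740359-73740538, plus strand: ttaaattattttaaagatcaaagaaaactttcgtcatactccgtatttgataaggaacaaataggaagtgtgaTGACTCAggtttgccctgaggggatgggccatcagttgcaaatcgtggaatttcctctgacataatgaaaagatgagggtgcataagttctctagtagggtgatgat
CCL20, chr2:227813632-227813811, plus strand: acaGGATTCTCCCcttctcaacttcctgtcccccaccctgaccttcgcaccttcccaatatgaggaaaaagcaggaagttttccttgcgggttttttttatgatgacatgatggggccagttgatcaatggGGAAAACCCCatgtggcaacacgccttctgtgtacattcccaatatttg
CXCL1, CXCL2 and CXCL3 shared the run GGGAATTTCC, an NF-kB motif, starting 79, 78 and 79 bases before the start site. The NF-kB motif was searched on both strands as GGGA and TTCC with any 2 bases between, GGGA and TCC with any 3, or GGG and TTTCC with any 2, so the run and its reverse overlap by all but 1 base. CXCL5 and CXCL6 held the same run 91 and 90 bases before theirs. CCL20 held GGATTCTCCC at 207 and GGAAAACCCC at 79 bases before the start. The window of CXCL8 held none of these spellings but held TGACTCA, an AP-1 motif (searched as TGACTCA or TGAGTCA), at 137 bases. Every NF-kB spelling searched needs GGG. The CXCL8 stretch also holds tggaatttcc, which differs from the run GGGAATTTCC only in its first base and so stayed in lower case. The capitals therefore do not show that CXCL8 lacks an NF-kB site. Of 35116 RefSeq promoters of 300 bases, 6.34% held an NF-kB match and 4.95% an AP-1 match. A TEAD motif (GGAATG on either strand, in 14% of promoters) was found in CCL20, as CATTCC 45 bases before the start, and in CCL28. A STAT motif (TTCNNNGAA, 7.66%) occurred in CXCL5 and CXCL6, overlapping their NF-kB match, and a C/EBP motif (TTGCNNAA, 10.5%) in CXCL2. The RefSeq start of CCL20 lies within the gene as GENCODE draws it. CCL2 and CCL5 had no entry. A match in a window is a description of its letters and not a bound site.

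Of the 10 members, CXCL1, CXCL2, CXCL3, CXCL8, CCL20, CCL2 and CCL28 were measured well enough in at least one comparison to receive an adjusted p, and CXCL5, CXCL6 and CCL5 were at or near 0. CXCL5 did not exceed 6.04 expected counts and was at 0 in 24 of 36 libraries. CXCL6 had at most 1 count and was at 0 in 34 libraries, and CCL5 had at most 4 counts and was at 0 in 19. No change in these 3 genes was detectable at this depth, and CXCL5 and CCL5 also overlap long noncoding RNAs on the other strand, CXCL6 a pseudogene on its own strand. Levels are given as TPM, the length-scaled share of a gene among all transcripts of its library. Differences are log2 fold changes of normalized counts from DESeq2, called at an adjusted p under 0.01 over all genes tested, with the standard error (SE) of the fit. CXCL1, CXCL2 and CXCL3 are similar enough that 5.33%, 10.1% and 5.26% of the 50-base windows of their transcripts occur in another of the 3, while CXCL8, CXCL6, CCL2 and CCL20 shared none, so sums over CXCL1, CXCL2 and CXCL3 are also given.

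Marker levels separated the cell lines. The 7 MCF-10A basal epithelial markers summed to 2305 to 4702 TPM in ER-Src and 8.11 to 79.6 TPM in MDA-MB-231, with 7 and 3 of them reaching 1 TPM on average. VIM, AXL and ZEB1, listed for MDA-MB-231, reached 1 TPM on average in both lines and summed to 452 to 2806 TPM in MDA-MB-231 and 194 to 367 TPM in ER-Src. ESR1, PGR and CDH1 summed to at most 2.57 TPM in MDA-MB-231. In ER-Src the targeted genes fell with their siRNA, except JUNB in ETH. YAP1 fell by 2.49 and 2.38 on the log2 scale in TAM and ETH YAPi, WWTR1, the gene of TAZ, by 2.22 and 1.86 in TAZi, and STAT3 by 2.66 and 1.88 in STAT3i. JUNB fell by 2.03 in TAM JUNBi, but in ETH JUNBi its difference was -1.16 with an adjusted p of 0.0637 from DESeq2, at 3.9 and 8.55 TPM against 11.94 and 12.99 TPM. In MDA-MB-231, YAP1 fell by 2.63 with YAPi, WWTR1 fell by 4.90 with TAZi and by 1.14 with YAPi, and TEAD1, TEAD2, TEAD3 and TEAD4 had log2 fold changes of -0.82, -4.30, -1.62 and -6.34 with TEADi. The 20 ER-Src libraries had totals of 6419720 to 19161700 expected counts. Gene length minus effective length, which follows the fragment or read length, was 49.5 bases in their Ctrli, YAPi and TAZi libraries and 49.0 bases with STAT3i and JUNBi, and the part of this in the results was not tested. The Ctrli libraries of set 1 held 13456784 and 13534560 counts, with 0.00278 to 0.00407% of them on 7 RNAs that lack a poly(A) tail, while the 8 knockdown libraries held 1411304 to 2784605 counts, with 8.71 to 11.8% on those RNAs. The same length difference was 75 bases in those Ctrli libraries, 48.0 in replicate 1 and 74.6 in replicate 2 of each knockdown. There, knockdown and type of library cannot be told apart. The 6 set 2 libraries held 7290499 to 18076158 counts, with 0.00363 to 0.0112%.

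Tamoxifen raised 5 of the 7 testable members in ER-Src cells with the control siRNA, and CCL20 moved by the most among those detected in both groups. In that comparison 6.21% of all tested genes were called and 4.62% were called higher. The median log2 fold change was 1.03 over these 7 members and -0.01 over all genes tested. CCL20 was at 18.2 and 9.35 TPM in ETH and at 66.8 and 57.9 TPM in TAM. Both tamoxifen libraries were above both ethanol libraries, and the gene rose 5.56-fold (log2 2.48, SE 0.22, DESeq2 adjusted p = 3.99e-28). CXCL3 was at 4.24 and 2.78 TPM in ETH and at 9.48 and 11.2 TPM in TAM, with no overlap, and rose by 1.93 on the log2 scale (SE 0.30, DESeq2 adjusted p = 9.42e-09). CXCL8, also known as interleukin 8, went from 9.58 and 7.13 TPM to 14.5 and 15.2 TPM. That was a rise of 1.03 (SE 0.21, DESeq2 adjusted p = 1.56e-05). CXCL2 went from 8.54 and 6.98 TPM to 11.4 and 12.5 TPM (log2 0.87, SE 0.24, DESeq2 adjusted p = 0.00623).

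CXCL1 was the most abundant ELR member in every ER-Src library and was not called with tamoxifen. Its 2 TAM libraries, at 48.9 and 46.7 TPM, lay between the ETH libraries at 58.8 and 33.2 TPM, and the difference was 0.26 with a 95% interval of -0.09 to 0.62 (DESeq2 adjusted p = 0.584). CXCL1, CXCL2 and CXCL3 together were at 70.1 ± 0.431 TPM in TAM and 57.3 ± 20.2 TPM in ETH (mean ± SD, n = 2). TPM of all genes shifted by a median of -0.30 in log2 in this comparison, and the sum differed by 0.29 in log2 TPM and by 0.49 in log2 normalized counts. CCL2 was at 0 in both ETH libraries and at 1.77 and 0.63 TPM in TAM, 39 counts in all, which was at least 17.7-fold higher against a floor of 3 counts over the group (DESeq2 adjusted p = 0.0014). CCL28 was low in both, at 0.51 and 0.48 TPM in ETH and 0.62 and 0.67 TPM in TAM, with a difference of 0.69 (SE 0.58, DESeq2 adjusted p = 0.726). The call of CXCL2 was lost without any 1 of the 4 libraries (log2 0.80 to 0.92). That of CXCL8 was lost without ETH replicate 2 or TAM replicate 2, and that of CCL2 without either ETH library. These fits called fewer genes in all than the main fit.

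**Figure D1:**
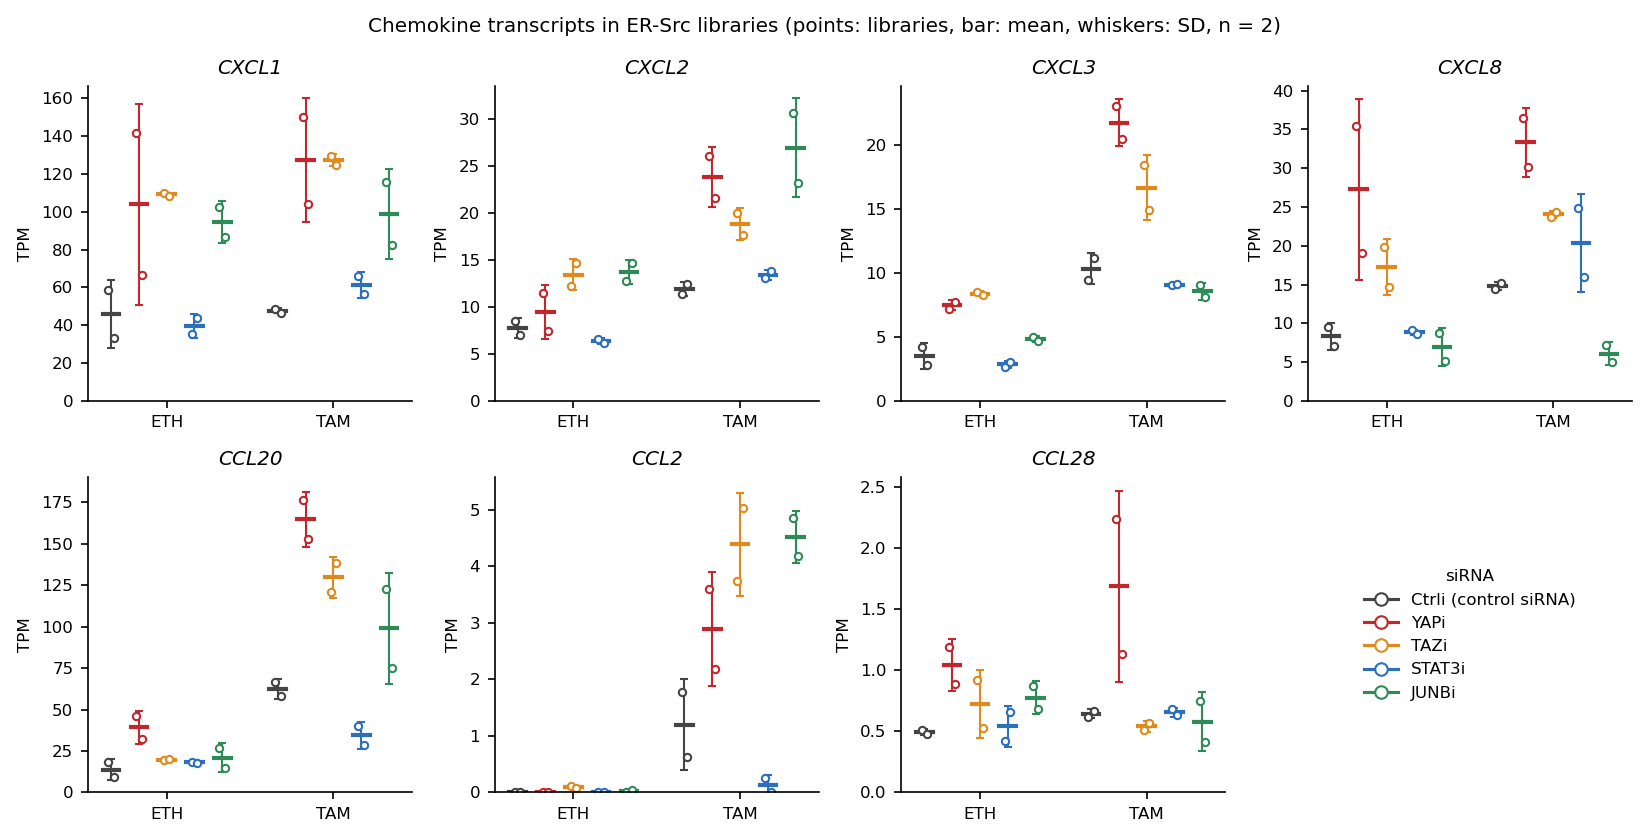
TPM of 7 chemokine genes in the 20 ER-Src libraries, by treatment (ETH or TAM) and siRNA, with each library as a point and the mean ± SD of each group of 2. CCL20 lay between 57.9 and 66.8 TPM in the TAM Ctrli libraries and between 153 and 176 TPM in the TAM YAPi libraries, and CXCL8 lay between 5.02 and 8.7 TPM in the 4 JUNBi libraries.

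Knockdown of YAP in tamoxifen-treated cells raised 6 of the 7 testable members, by 2.19 to 2.77-fold, where 10.7% of tested genes were called and 5.27% were called higher. The median log2 fold change of the 7 was 1.15, against 0.01 for all genes tested. CCL20 went from 66.8 and 57.9 TPM in TAM Ctrli to 176 and 153 TPM in TAM YAPi, the highest values of this gene in the study (log2 1.41, SE 0.12, DESeq2 adjusted p = 1.15e-28). CXCL1 was at 150 and 104 TPM, above both control libraries, and rose 2.65-fold (log2 1.40, SE 0.15, DESeq2 adjusted p = 4.71e-19). CXCL8 was at 36.5 and 30.2 TPM and rose 2.21-fold (adjusted p = 1.91e-11 by DESeq2). CXCL2, at 26.1 and 21.6 TPM, and CXCL3, at 23.0 and 20.5 TPM, both rose 2.19-fold (DESeq2 adjusted p = 3.94e-08 and 2.61e-07). The 4 well-expressed ELR genes thus moved by similar amounts, with 95% intervals of 1.12 to 1.69 for CXCL1, 0.77 to 1.5 for CXCL2, 0.75 to 1.51 for CXCL3 and 0.84 to 1.45 for CXCL8 on the log2 scale. Summed, CXCL1, CXCL2 and CXCL3 were at 173 ± 37.6 TPM (SD, n = 2), 1.30 above TAM Ctrli in log2 TPM and 1.32 in normalized counts.

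The 2 low CC genes were less certain in TAM YAPi. CCL28 was at 2.24 and 1.13 TPM and was called (log2 1.47, SE 0.45, DESeq2 adjusted p = 0.00941), but not without any 1 of the 4 libraries (log2 0.99 to 1.86). CCL2, at 3.6 and 2.18 TPM, was above both control libraries and not called (log2 1.15, SE 0.62, DESeq2 adjusted p = 0.221). The call of CXCL3 was lost without TAM Ctrli replicate 1. All fits without 1 library called fewer genes in all here than the main fit. Of 37 other chemokine ligands looked at, 3 could be tested, and CXCL11, an interferon-induced ligand of CXCR3, rose by 4.02 (DESeq2 adjusted p = 0.000594).

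Knockdown of TAZ in tamoxifen-treated cells raised 3 of the 7 testable members, where 3.42% of tested genes were called and 1.75% were called higher. CXCL1 went to 130 and 125 TPM, which was 2.45-fold higher than in TAM Ctrli (log2 1.29, SE 0.11, DESeq2 adjusted p = 8.93e-29). CCL20 went to 121 and 139 TPM (1.90-fold, DESeq2 adjusted p = 7.82e-13), and CXCL8 to 23.8 and 24.4 TPM (1.51-fold, DESeq2 adjusted p = 0.00504). CXCL2 at 20.1 and 17.7 TPM (log2 0.67, adjusted p = 0.0185), CXCL3 at 18.4 and 14.9 TPM (log2 0.53, adjusted p = 0.202) and CCL2 at 3.75 and 5.04 TPM (log2 1.63, adjusted p = 0.0563) lay above both control libraries without passing the DESeq2 test. CCL28 was at 0.51 and 0.57 TPM, a difference of -0.33 (adjusted p = 0.876). The sum of CXCL1, CXCL2 and CXCL3 was 163 ± 7.6 TPM (SD, n = 2). The call of CXCL8 was lost without any 1 of the 4 libraries (log2 0.46 to 0.73), in fits that called fewer genes in all than the main fit.

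A marker listed for fibroblasts was also higher with YAPi and TAZi, in TAM and in ETH, but not with JUNBi. DCN made up nearly all of that list in ER-Src, and the list summed to 64.6 to 67.5 TPM in TAM Ctrli, 203 to 260 TPM in TAM YAPi and 203 to 210 TPM in TAM TAZi. It was lower in TAM JUNBi, at 41.7 to 48.5 TPM, and overlapped Ctrli in TAM STAT3i, at 51.9 to 71.3 TPM. In ETH the list summed to 58.3 to 60.8 TPM in Ctrli, 147 to 181 TPM in YAPi and 137 to 155 TPM in TAZi. ETH JUNBi was at 35.3 to 46.9 TPM and ETH STAT3i at 30.3 to 46.8 TPM. Without DCN, the other 3 fibroblast markers (COL1A1, COL1A2 and PDGFRB) summed to at most 0.78 TPM in every ER-Src library. Among the leukocyte markers only CD14 was above 0.36 TPM, with a summed range of 3.13 to 9.68 TPM over the ER-Src libraries. The part of DCN or CD14 in the chemokine results was not tested. In bulk RNA, fewer cells of a kind and less RNA per cell cannot be told apart.

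The same siRNAs were also compared in ethanol-treated cells, where v-Src had not been switched on. YAPi raised 3 of the 6 testable members, with 11.6% of tested genes called and 5.11% called higher. CXCL8 went from 9.58 and 7.13 TPM to 35.5 and 19.0 TPM (log2 1.68, SE 0.21, DESeq2 adjusted p = 1.47e-13). CCL20 went from 18.2 and 9.35 TPM to 46.0 and 32.3 TPM (log2 1.58, SE 0.23, DESeq2 adjusted p = 8.94e-10), and CXCL3 from 4.24 and 2.78 TPM to 7.22 and 7.74 TPM (log2 1.20, SE 0.32, DESeq2 adjusted p = 0.00178). The YAPi replicates differed widely for CXCL1, at 142 and 66.5 TPM, and its difference of 1.17 (SE 0.53) was not called (DESeq2 adjusted p = 0.115). It was called by DESeq2 when 1 fit held all groups (adjusted p = 2.6e-05). CXCL2 at 11.6 and 7.49 TPM overlapped the controls (log2 0.50, DESeq2 adjusted p = 0.177), and CCL28 at 1.19 and 0.89 TPM was not called (log2 1.18, DESeq2 adjusted p = 0.0793). The call of CXCL3 was lost without any 1 library and that of CCL20 without YAPi replicate 2. These fits called fewer genes in all than the main fit. CXCL11 rose here too, by 4.62 (DESeq2 adjusted p = 0.000384).

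TAZi in ethanol also raised 3 of 6 testable members, with 5.24% of tested genes called and 2.6% called higher. CXCL1 was at 110 and 109 TPM against 58.8 and 33.2 TPM (log2 1.16, SE 0.17, DESeq2 adjusted p = 7.46e-10). CXCL3 at 8.51 and 8.24 TPM (log2 1.23, adjusted p = 0.00556) and CXCL8 at 19.8 and 14.7 TPM (log2 0.84, adjusted p = 0.00254) were called by DESeq2 as well. CXCL2 at 12.3 and 14.6 TPM (log2 0.77, DESeq2 adjusted p = 0.0211) and CCL20 at 19.3 and 20.0 TPM (log2 0.48, DESeq2 adjusted p = 0.315) lay above both control libraries and were not called. CXCL1 lost its call without either TAZi library, and CXCL3 and CXCL8 without any 1 of the 4 libraries. These fits called fewer genes in all than the main fit, so lost calls were not confined to the members. The log2 fold change was 0.88 to 1.48 for CXCL1, 1.05 to 1.42 for CXCL3 and 0.61 to 1.03 for CXCL8 with 1 library left out.

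An interaction term tested if each siRNA acted unequally under tamoxifen and vehicle. For YAPi no member of 7 was called at DESeq2 adjusted p under 0.01 (0.498% of all genes were), and the largest differences were 0.62 for CXCL2 (95% interval 0.07 to 1.17, adjusted p = 0.761) and -0.55 for CXCL8 (95% interval -1.08 to -0.02, adjusted p = 0.921), leaving aside CCL2 with its few counts. For TAZi, 3 members had an adjusted p and none was called (1.6% of genes were), with CCL20 at 0.43 (95% interval -0.05 to 0.91, DESeq2 adjusted p = 0.335). At an unadjusted p under 0.05 stood CXCL2 and CXCL8 for YAPi and CXCL3 for TAZi. The effects of YAPi and TAZi on these genes were not shown to differ between TAM and ETH.

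**Figure D2:**
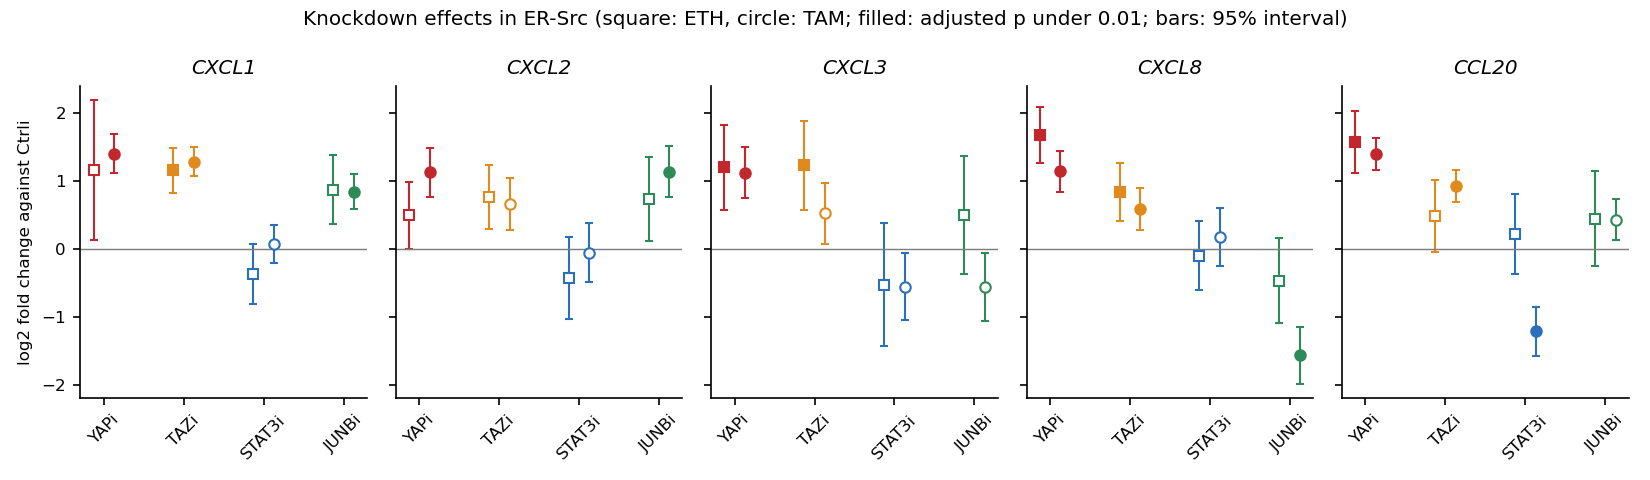
Log2 fold change against Ctrli of CXCL1, CXCL2, CXCL3, CXCL8 and CCL20 for each siRNA in ER-Src, in ETH (squares) and TAM (circles), with 95% intervals and filled symbols for a DESeq2 adjusted p under 0.01. All 5 genes lay above 0 with YAPi and TAZi, while JUNBi in TAM placed CXCL1 (0.85) and CXCL2 (1.14) above 0 and CXCL8 (-1.56) below it.

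Knockdown of JUNB split the ELR members in tamoxifen-treated cells. It raised CXCL1 and CXCL2 and lowered CXCL8, giving 3 called members of 7 where 6.9% of tested genes were called. CXCL8 was at 7.2 and 5.02 TPM against 14.5 and 15.2 TPM in TAM Ctrli, below both controls, and fell by 1.56 on the log2 scale (SE 0.21, DESeq2 adjusted p = 4.92e-11). CXCL2 was at 30.7 and 23.2 TPM against 11.4 and 12.5 TPM (log2 1.14, SE 0.19, DESeq2 adjusted p = 2.37e-07). CXCL1 was at 116 and 82.2 TPM against 48.9 and 46.7 TPM (log2 0.85, SE 0.13, DESeq2 adjusted p = 7.46e-09). CXCL3, close to CXCL2 in sequence, was at 9.02 and 8.09 TPM, below both controls, and was not called (log2 -0.56, 95% interval -1.06 to -0.06, DESeq2 adjusted p = 0.14). CCL20 at 123 and 75.3 TPM (log2 0.43, adjusted p = 0.0416) and CCL2 at 4.85 and 4.19 TPM (log2 1.65, adjusted p = 0.0305) lay above the controls and were not called by DESeq2. The call of CXCL2 was lost without JUNBi replicate 1, in a fit that called fewer genes in all than the main fit.

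The ratio of CXCL1 to CXCL8 set the JUNBi libraries apart. In TPM it was 11.8 to 16.8 in the 4 ER-Src libraries with JUNBi and 2.66 to 7.38 in the other 16, with no overlap, and CXCL1 made up 69.3 to 79.5% of the summed ELR TPM with JUNBi and 54.5 to 74.3% without it. In ethanol no member of 6 passed the DESeq2 test with JUNBi, where 2.8% of tested genes were called and JUNB itself was not. At an unadjusted p under 0.05 stood CXCL1 and CXCL2. There edgeR called 1 of 14895 genes and no member, so its result says little about the members. CXCL1 at 103 and 86.8 TPM (log2 0.88, DESeq2 adjusted p = 0.0208) and CXCL2 at 12.8 and 14.6 TPM (log2 0.74, DESeq2 adjusted p = 0.214) lay above both control libraries, and CXCL8 at 8.7 and 5.17 TPM overlapped them (log2 -0.46, DESeq2 adjusted p = 0.622). The interaction of JUNBi with tamoxifen was not called for any of the 7 members by DESeq2 (0.288% of genes were). It was -1.13 for CXCL8 (95% interval -1.84 to -0.41, DESeq2 adjusted p = 0.213) and -1.09 for CXCL3 (95% interval -1.92 to -0.25, DESeq2 adjusted p = 0.504). Without ETH JUNBi replicate 2 the CXCL8 interaction passed (adjusted p = 0.00891).

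**Figure D3:**
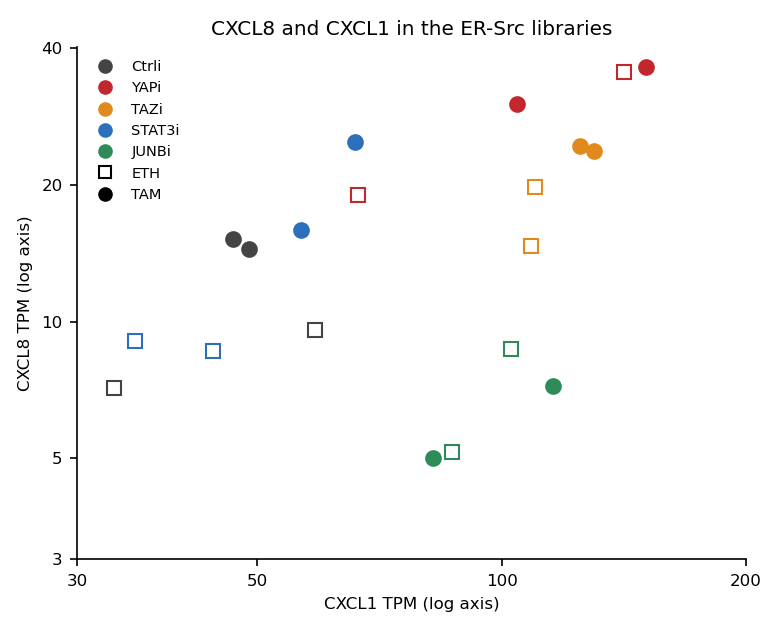
CXCL8 against CXCL1 in the 20 ER-Src libraries, both in TPM on log axes, 1 point per library colored by siRNA. The 4 JUNBi libraries lie at ratios of CXCL1 to CXCL8 of 11.8 to 16.8 and the other 16 at 2.66 to 7.38.

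STAT3 knockdown lowered 1 member of 7 in tamoxifen-treated cells, CCL20, where 8.22% of tested genes were called. CCL20 was at 40.1 and 28.7 TPM against 66.8 and 57.9 TPM in TAM Ctrli and fell by 1.21 on the log2 scale (SE 0.18, DESeq2 adjusted p = 3e-09). Both STAT3i libraries were below both controls. CCL2, at 0.26 and 0 TPM against 1.77 and 0.63 TPM, differed by -3.55 (SE 1.19, DESeq2 adjusted p = 0.027) and was not called. The ELR genes were not called: CXCL1 was at 66.0 and 56.5 TPM (log2 0.07, 95% interval -0.21 to 0.35), CXCL8 at 24.8 and 15.9 TPM (log2 0.17, 95% interval -0.25 to 0.60) and CXCL3 at 9.06 and 9.13 TPM (log2 -0.55, 95% interval -1.04 to -0.06, DESeq2 adjusted p = 0.137). All genes shifted by a median of 0.37 in log2 TPM in this comparison, and the sum of CXCL1, CXCL2 and CXCL3 differed by 0.26 in TPM and by -0.04 in normalized counts.

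In ethanol, STAT3i called no member of 6 by DESeq2, none at an unadjusted p under 0.05, and few genes at all (0.189%). There edgeR called 0 of 14520 genes, so its lack of a called member says nothing about the members. CCL20 was at 18.6 and 17.5 TPM against 18.2 and 9.35 TPM (log2 0.22, 95% interval -0.37 to 0.81). The difference between the 2 treatments was itself called for CCL20, at -1.46 (95% interval -2.11 to -0.80, DESeq2 adjusted p = 0.00143, with 1.34% of genes called). It was the 1 member called of 7 in an interaction, it was lost in 4 of 8 fits that left out a library (adjusted p 0.028 to 0.096, namely without TAM Ctrli 1 or 2, ETH Ctrli 2 or TAM STAT3i 2), and edgeR gave an adjusted p of 0.0839. JUNB also fell in TAM STAT3i, by 2.41 on the log2 scale.

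**Figure D4:**
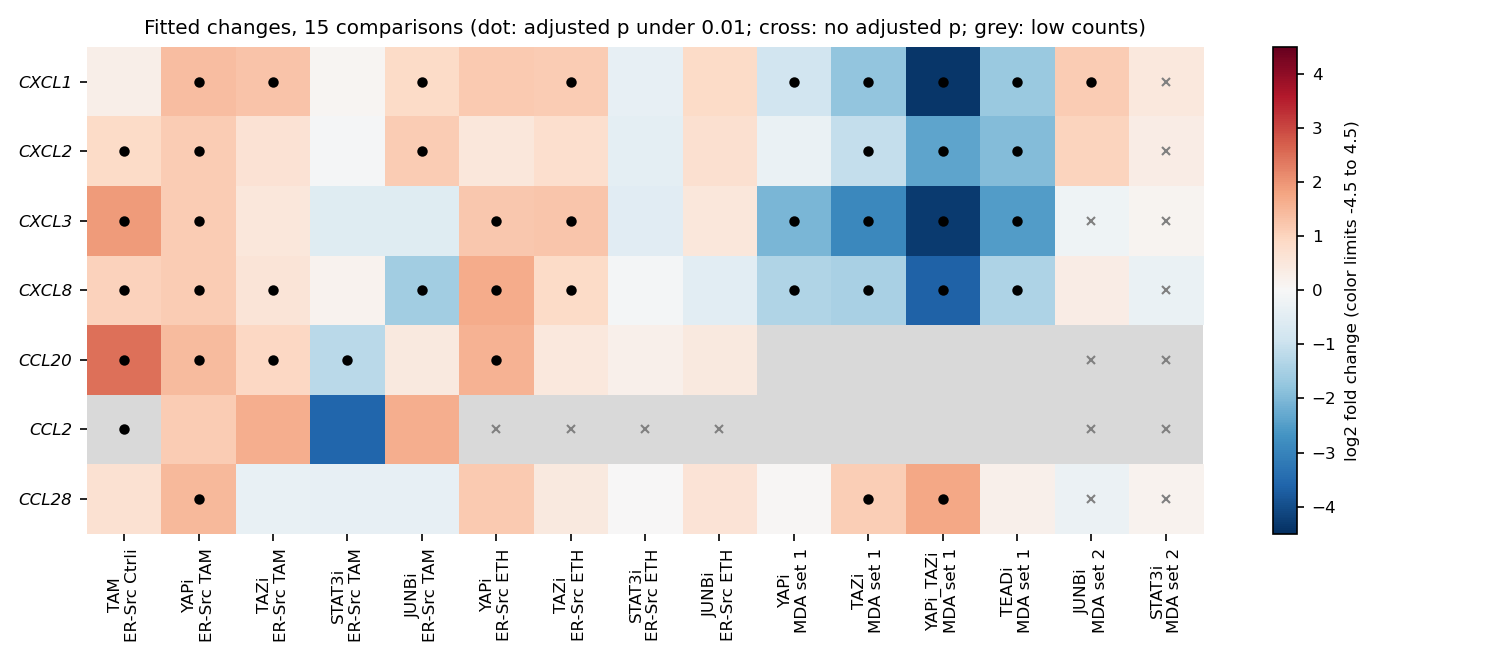
Log2 fold change (color, -4.5 to 4.5) of 7 members in 15 comparisons, with a dot for a DESeq2 adjusted p under 0.01, a cross where no adjusted p was given, and grey where a group was at 0 or the counts were too low. CCL20 is positive with TAM (2.48) and negative with STAT3i in TAM (-1.21), and the ELR genes are positive with YAPi in ER-Src and negative in MDA-MB-231 set 1, where knockdown and library type cannot be told apart.

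The receptors of the ELR chemokines were also in the ER-Src data, with 2 of the 4 testable receptor genes of a list of 23 called higher with tamoxifen. In that comparison 4.62% of all tested genes were called higher. CXCR1 was at 0.21 and 0.1 TPM in ETH Ctrli and 4.46 and 4.01 TPM in TAM Ctrli (log2 4.94, DESeq2 adjusted p = 2.6e-27), and CXCR2 at 0.15 and 0.19 TPM and 2.33 and 1.71 TPM (log2 4.38, DESeq2 adjusted p = 3.9e-13). All 4 knockdowns lowered CXCR1 in TAM, with log2 fold changes of -3.84 (YAPi), -2.01 (TAZi), -4.56 (STAT3i) and -1.81 (JUNBi). CXCR2 fell in 3 of them, with -1.72 (YAPi), -3.93 (STAT3i) and -2.72 (JUNBi). With YAPi in TAM, the RNA of the ligands rose and that of both receptors fell. CCR6, the receptor of CCL20, was at 0 in every ER-Src library, and CXCR1 and CXCR2 were at 0 in every MDA-MB-231 library.

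Inducers of chemokines and regulators of NF-kB were followed as a list of 23 genes, of which 18 or 19 could be tested in each 2-group ER-Src comparison. With tamoxifen 8 of 19 rose and none fell (median log2 fold change 0.64), where 6.21% of all tested genes were called, led by ZFP36 (2.34) and ZC3H12A (1.71), both of which destabilize cytokine mRNAs, and ICAM1 (1.63), an adhesion molecule. With STAT3i in TAM 1 of 19 rose and 6 fell, beside 8.22% of all genes called, the largest being ZFP36 (-2.24), ZC3H12A (-2.02) and ICAM1 (-1.25). YAPi in TAM called 3 of 19, a share near the 10.7% of all genes, and these were IL1RN, the interleukin 1 receptor antagonist (4.73), IL1A (1.72) and the NF-kB target BIRC3 (0.97), all higher. YAPi in ETH raised 5 of 19 and lowered none (11.6% of all genes called), with IL1RN (3.71), IL1A (1.56) and TNFAIP3 (1.33) moving most. TAZi called 2 of 19 in TAM (3.42% of all genes), BIRC3 (0.66) and ZC3H12A (0.41), and 1 of 19 in ETH (5.24% of all genes), ZC3H12A (0.85), all higher. JUNBi lowered IL1B, in TAM by 2.50 and in ETH by 1.77 on the log2 scale, and raised BIRC3 (1.06 and 1.62). In TAM it also lowered ZFP36 (-0.97), which makes 3 of 18 in TAM and 2 of 19 in ETH beside 6.9 and 2.8% of all genes. With STAT3i in ETH, DESeq2 called none of 19.

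Over the 20 ER-Src libraries, the genes whose log2 TPM was most like that of the summed ELR members, of 10014 genes compared, included IFI30 (Pearson r 0.885), SLC43A2 (0.871), SVIL (0.863) and CTSA (0.86). Of 9 NF-kB regulators and inducers looked up beside them, NFKBIZ, an NF-kB cofactor, was highest at 0.85 (7th of all genes), while the inhibitor NFKBIA (0.158), the NF-kB subunit NFKB1 (0.0113) and IL1B (0.128) were near 0 and the other 5 lay at 0.438 to 0.737. Among the members, CXCL3 and CCL20 had an r of 0.869, CXCL1 and CXCL2 of 0.737, and CXCL2 and CXCL8 of 0.211. The points share libraries and treatments, so the values are descriptions only.

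In MDA-MB-231 set 1 the knockdown libraries had lower ELR levels than Ctrli, and CXCL8 was the most abundant member in Ctrli. The ELR genes were high in set 1 Ctrli: CXCL8 at 214 and 232 TPM, CXCL1 at 157 and 170 TPM, CXCL2 at 48.3 and 53.2 TPM and CXCL3 at 41.8 and 37.0 TPM, 477 ± 22 TPM in all (SD, n = 2). The ratio of CXCL1 to CXCL8 was 0.355 to 1.01 over set 1 and 1.97 to 4.05 over set 2. CCL20, at 2.38 and 2.78 TPM, and CCL2, at 2.64 and 2.26 TPM, were low. Because TPM of all genes shifted by a median of -1.36 to -1.47 in log2 between the control and knockdown libraries of set 1, normalized counts are used for this set.

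In set 1, 3 of the 7 testable members were lower in the YAPi libraries than in Ctrli (24.4% of all genes were called and 12.1% lower). For all set 1 knockdowns, knockdown and type of library cannot be told apart. CXCL8 went from 594 and 657 to 227 and 264 normalized counts (log2 -1.37, SE 0.16, DESeq2 adjusted p = 6.74e-16), CXCL3 from 67.1 and 63.0 to 14.3 and 17.0 (log2 -2.07, adjusted p = 0.000106 by DESeq2) and CXCL1 from 274 and 303 to 147 and 178 (log2 -0.85, adjusted p = 0.000212 by DESeq2). CXCL2, at 82.9 and 78.4 against 91.4 and 102, was not called (log2 -0.28, DESeq2 adjusted p = 0.504). In the TAZi libraries all 4 of these genes were lower and CCL28 was higher, with 32.8% of genes called and 16.8% lower. CXCL1 was at 95.3 and 81.3 normalized counts (log2 -1.76, DESeq2 adjusted p = 6.24e-21), CXCL3 at 10.2 and 8.23 (log2 -2.89, adjusted p = 6.74e-10 by DESeq2), CXCL8 at 208 and 255 (log2 -1.46, adjusted p = 5.5e-19 by DESeq2) and CXCL2 at 39.1 and 52.5 (log2 -1.08, adjusted p = 0.000151 by DESeq2).

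Within set 1, the YAPi_TAZi libraries held the lowest normalized counts of CXCL1, CXCL3 and CXCL8, while those of CXCL2 overlapped TEADi. CXCL1 was at 22.4 and 8.58 normalized counts, 20.6-fold lower than in Ctrli (log2 -4.37, SE 0.37, DESeq2 adjusted p = 1.18e-30), and CXCL8 at 51.0 and 51.5, 12.5-fold lower (log2 -3.65, SE 0.21, DESeq2 adjusted p = 1.01e-65). CXCL3 at 6.12 and 1.43 (log2 -4.31) and CXCL2 at 10.2 and 25.8 (log2 -2.38) fell as well (DESeq2 adjusted p = 5.36e-08 and 1.32e-10), so that 4 of 7 members fell and 1 rose where 35.6% of genes were called and 18.2% were lower. CCL28 rose to 51.0 and 71.5 normalized counts from 19.1 and 17.0 (log2 1.75, DESeq2 adjusted p = 5.51e-09), and with TAZi alone to 35.7 and 42.2 (log2 1.09, DESeq2 adjusted p = 0.00238). In TPM the CCL28 groups overlapped, at 4.63 and 3.69 in Ctrli, 4.04 and 8.51 in YAPi_TAZi and 1.92 and 4.26 in TAZi. All 4 ELR genes were lower in the TEADi libraries (27.5% of genes called, 14% lower), with log2 fold changes of -1.69 for CXCL1, -1.95 for CXCL2, -2.50 for CXCL3 and -1.39 for CXCL8. Their DESeq2 adjusted p-values were 5.76e-12, 1.27e-05, 1.91e-05 and 4.29e-15. In these comparisons too, knockdown and type of library cannot be told apart.

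With the controls of both sets pooled, the members called in set 1 were 0 for YAPi, 0 for TAZi, 4 for YAPi_TAZi and 0 for TEADi. The set 2 controls held 0.00915 and 0.00363% of counts on the RNAs that lack a poly(A) tail, about as few as the set 1 controls. Pooling them therefore cannot separate knockdown from type of library. The Ctrli groups of the 2 sets also differed in level. Mean TPM in set 1 and set 2 Ctrli was 223 and 22.5 for CXCL8 and 163 and 49.4 for CXCL1. It was 50.8 and 8.9 for CXCL2 and 39.4 and 4.4 for CXCL3. The part of this difference in the lost calls was not tested. In YAPi_TAZi, CXCL1 differed by -3.99 (DESeq2 adjusted p = 3.69e-09) with pooled controls and by -2.97 (DESeq2 adjusted p = 6.8e-06) against the other set 1 knockdowns, which hold siRNAs of the same pathway, and CXCL8 by -2.85 (0.00242) and -2.24 (6.67e-16). CXCL3 and CCL28 were called with pooled controls alone, at -3.50 and 1.87, and CXCL2 at -1.86 was not (DESeq2 adjusted p = 0.0548). Several calls also ended without either Ctrli library: CXCL1 and CXCL3 with YAPi (adjusted p 0.053 to 0.141), CXCL2 and CXCL3 with TEADi (0.0244 to 0.0485), CXCL2 with TAZi or YAPi_TAZi and CCL28 with TAZi or YAPi_TAZi.

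CCL20 was at 0 in both TAZi libraries of set 1 against 35 counts in Ctrli, at least 1.95-fold lower at this depth, and its fit was not called (DESeq2 adjusted p = 0.0914). CCL2 was at 0 with YAPi and TEADi, at least 1.62 and 1.45-fold lower than 30 counts in Ctrli. Among receptors CXCR4, the receptor of CXCL12, fell in all 4 set 1 knockdowns, with log2 fold changes of -3.57, -3.69, -5.26 and -3.85 for YAPi, TAZi, YAPi_TAZi and TEADi. ACKR3, a scavenging receptor, rose by 3.86 with TEADi, and CCRL2 rose by 1.09, 1.20 and 1.56 with YAPi, TAZi and YAPi_TAZi. Of the receptors tested, 1 of 6 rose with YAPi, 1 of 7 with TAZi, 3 of 10 with YAPi_TAZi and 1 of 8 with TEADi, and 1 fell in each. The share of all tested genes called was 24.4, 32.8, 35.6 and 27.5% in these comparisons, and that of the receptors lay near it. Knockdown and type of library cannot be told apart here. DESeq2 called none of the 5 other ligands tested in any of the 4, and at an unadjusted p under 0.05 stood CX3CL1 with YAPi, TAZi and TEADi.

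The inducers and NF-kB regulators moved both ways in set 1, where the share of all genes called was 24.4, 32.8, 35.6 and 27.5% for YAPi, TAZi, YAPi_TAZi and TEADi. The same limit on knockdown and type of library holds for them. Of the 19 tested, 3 rose and 5 fell with YAPi, 3 rose and 11 fell with TAZi, 4 rose and 8 fell with YAPi_TAZi, and 3 rose and 4 fell with TEADi. REL, an NF-kB subunit, rose by 2.05 with YAPi, 2.26 with YAPi_TAZi and 2.01 with TEADi. IL1B fell in each of the 4 (log2 fold changes of -2.59, -2.05, -1.49 and -1.81). ZFP36 fell with YAPi (-2.14) and TAZi (-2.05), TNFAIP3, an inhibitor of NF-kB, with TAZi (-1.93) and YAPi_TAZi (-2.19), and IL1A with TEADi (-1.29). In set 2 DESeq2 called none of the list, of 15 tested with JUNBi and 5 with STAT3i, and at an unadjusted p under 0.05 stood IL1A, NFKBIA and ZFP36 with JUNBi.

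**Figure D5:**
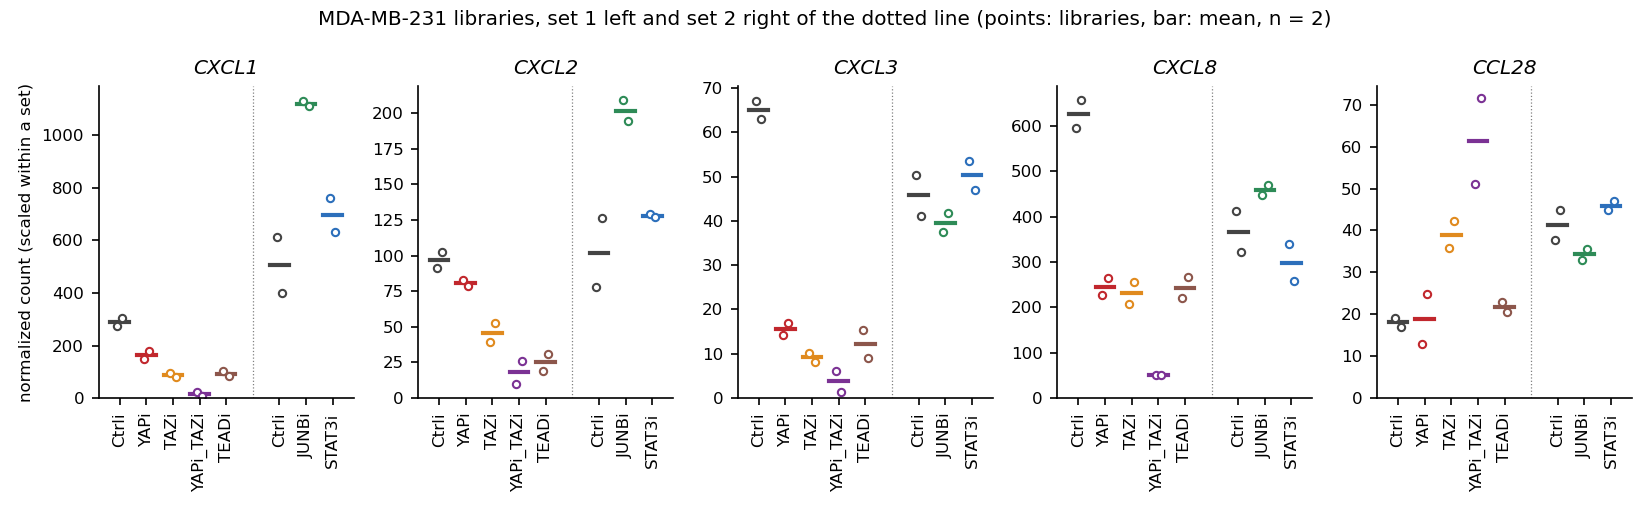
Normalized counts of CXCL1, CXCL2, CXCL3, CXCL8 and CCL28 in the MDA-MB-231 libraries, scaled within each set, with 1 point per library. In set 1, CXCL8 stands at 594 and 657 in Ctrli and at 51.0 and 51.5 in YAPi_TAZi, and in set 2 CXCL1 stands at 612 and 398 in Ctrli and at 1131 and 1110 in JUNBi.

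In MDA-MB-231 set 2, JUNBi raised CXCL1, the 1 member called of 3 with an adjusted p, where 3.41% of tested genes were called. CXCL1 was at 122 and 142 TPM against 64.2 and 34.6 TPM in Ctrli, with no overlap (log2 1.15, SE 0.24, DESeq2 adjusted p = 0.000282). The call was lost without Ctrli replicate 4, and edgeR gave CXCL1 an adjusted p of 0.115. CXCL2 at 20.1 and 22.1 TPM against 7.93 and 9.8 TPM was higher without a call (log2 0.99, DESeq2 adjusted p = 0.0874). CXCL8 at 30.2 and 37.4 TPM against 27.5 and 17.6 TPM was not called (log2 0.32, 95% interval -0.19 to 0.83, DESeq2 adjusted p = 0.486), and the sum of CXCL1, CXCL2 and CXCL3 was 158 ± 16.2 TPM against 62.6 ± 20.8 TPM (SD, n = 2). JUNB fell by 2.04 on the log2 scale there.

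STAT3i in set 2 gave no member an adjusted p after DESeq2's filter on low counts, in a comparison with 0.497% of tested genes called. No member stood at an unadjusted p under 0.05. STAT3 itself had a log2 fold change of -2.41, also without an adjusted p. CXCL1 was at 79.1 and 69.0 TPM (log2 0.46, 95% interval -0.06 to 0.99), CXCL8 at 22.1 and 17.6 TPM (log2 -0.30, 95% interval -0.88 to 0.28) and CXCL2 at 12.0 and 12.4 TPM (log2 0.33, 95% interval -0.55 to 1.20). In this line the intervals span both directions. CCL20 and CCL2 had a TPM of at most 1.01 in every set 2 library.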

How the data were processed

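RNA-seq of 36 libraries was analysed from gene tables deposited by the authors, whose methods name the TruSeq Ribo Profile kit. They aligned reads to hg38 with STAR, keeping up to 20 alignments per read, and quantified GENCODE v30 genes with RSEM. Set 1 Ctrli and set 2 held at most 0.0112% of counts on the 7 RNAs without a poly(A) tail. All other libraries held at least 8.71%, so it is open if 1 kit made all libraries. The deposited values used were expected counts, which share ambiguous reads between genes, and TPM, which the authors' RSEM run scaled by effective length within each library. Strand settings were not given in the sources used here. Of 61471 identifiers per table, 746 were not Ensembl genes and were left out, and 93.1% of the rest matched a symbol in GENCODE v44.

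Expected counts were rounded to whole numbers and tested with DESeq2 1.42.0 (R 4.3.3, default Wald test, Benjamini-Hochberg adjusted p under 0.01 over all genes), each siRNA against Ctrli of the same treatment or set, and with an interaction term over 8 libraries in ER-Src. For YAPi_TAZi, DESeq2 substituted a local dispersion trend. Genes removed by the filter on low counts have no adjusted p. Alternatives were edgeR 4.0.16 (quasi-likelihood), TMM size factors, a mean count of at least 10, effective length offsets, 1 fit over all groups, a replicate block, other references in set 1, and leaving out each library. The fitting steps were tested on simulated data.

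The 10 members were examined in every comparison, and the text does not print the values of each in all of them. From lists of other ligands, receptors and inducers, counts are given for each direction, with up to 3 called genes per list and comparison of mean count at least 20 named by largest change. Receptors at 0, and NFKBIZ, NFKBIA, NFKB1 and IL1B in the correlations, were named outside that rule. Like-pattern genes were the 5 with the highest r of log2(TPM + 1) with the summed ELR TPM among genes of mean count at least 100, of which 1 is not reported here. The members and lists were chosen with earlier results of these data known. RSEM's 95% credible bounds were 7.98 to 11.0 TPM for CXCL3 and 9.59 to 13.1 TPM for CXCL2 in the first TAM Ctrli library. Intervals and floors cover counting error or the spread of 2 libraries.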

Additional observations from a re-analysis of the deposited data

Results flagged for a closer look

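The effect of STAT3i on CCL20 differed between TAM and ETH in ER-Src, with an interaction of -1.46 on the log2 scale (DESeq2 adjusted p = 0.00143). All other entries set the log2 fold change in MDA-MB-231 beside that in ER-Src for the same siRNA, where the normalized counts of both knockdown libraries lay above both controls in one line and below both in the other. These differences between lines were not tested, and in set 1 the knockdown libraries also differ from their controls in type.

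For YAPi, the MDA-MB-231 value minus the TAM value in ER-Src was -2.25 for CXCL1, -1.42 for CXCL2, -3.20 for CXCL3 and -2.51 for CXCL8. Against ETH it was -2.01, -0.78, -3.28 and -3.05 for the same genes. For TAZi it was -3.05, -1.75, -3.41 and -2.05 against TAM, with 1.42 for CCL28, and -2.92, -1.85, -4.12 and -2.30 against ETH. For JUNBi, in set 2, it was 1.89 for CXCL8 against TAM and 0.79 against ETH.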

How the results depend on the processing

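Of 43 member calls, edgeR kept 38, TMM size factors 42, effective length offsets 40, and 1 fit over all groups 39. A mean count of at least 10 kept all 42 calls it could test. Members called moved by over 1.5 times with edgeR for the STAT3i interaction (0 in place of 1) and JUNBi in set 2 (0 in place of 1), and with 1 fit over all groups for STAT3i in TAM (2 in place of 1), JUNBi in ETH (2 in place of 0) and TAZi in set 1 (3 in place of 5). With controls of both sets, set 1 YAPi, TAZi and TEADi gave 0. These controls are alike in their low share of RNAs without a poly(A) tail. They differ in summed ELR level, with means of 477 TPM in set 1 and 85.2 TPM in set 2. With the other set 1 knockdowns as reference, in a fit with the replicate block, YAPi, TAZi and TEADi gave 0 and YAPi_TAZi 2, and some differences changed sign: CXCL8 to 0.48 with YAPi, 0.36 with TAZi and 0.46 with TEADi, CXCL2 to 0.14 with TAZi, and CXCL1 to 0.0598 with TEADi. That reference holds other siRNAs of the same pathway, YAPi_TAZi included, so lost calls and changed signs follow in part from its construction.

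No source says that replicate numbers mark a shared culture or day. Deviations of same-numbered libraries correlated at -0.0474 to 0.229, above 0.1 for TAZi, STAT3i and JUNBi in ETH and the STAT3i and JUNBi interactions. In the set 1 knockdowns the number goes with the length difference, 48.0 bases in replicate 1 and 74.6 in replicate 2. With the replicate block, 33 of 42 calls held, and members called became 3 (from 5) for TAM against ETH and 1 (from 3) for TAZi in ETH. All genes called went from 976 to 619 and from 739 to 404 in these 2 comparisons. Members called became 1 (from 0) for JUNBi in ETH and 3 (from 5) for TAZi in set 1. For YAPi in ETH the block called CXCL1 (log2 1.13, DESeq2 adjusted p = 9.27e-13) and lost CXCL3 (DESeq2 adjusted p = 0.0347). No paired analysis was possible for set 2 because its controls are numbered 3 and 4 and its knockdowns 1 and 2.

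Leaving out 1 library leaves a lone library assumed to vary like the others. For TAM against ETH and for YAPi, TAZi, STAT3i and JUNBi in TAM, each such fit called fewer genes in all than the main fit. The same held for YAPi and TAZi in ETH. Lost calls were therefore not confined to the members. No such fit called more members than the main fit, except for CXCL8 in the JUNBi interaction. Where the call of a member changed, its log2 fold change kept its sign.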
